A study of Mus musculus with 5 samples.

Results

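The circadian clock and its output were followed in adipocytes through 10 genes: Arntl, Per1, Per2, Per3, Cry1, Nr1d1, Nr1d2, Dbp, Nfil3 and Noct. They were chosen by name, as all array probe sets whose platform annotation gives only that gene, and they make up 10 of 18193 genes and 20 probe sets of 34945 that name a single gene. The cells were C3H10T1/2, a mouse mesenchymal line, fully differentiated into adipocytes, given fresh medium the day before, and then exposed for 6 h to the solvent DMSO, to butein or to sulfuretin, or, with its own DMSO culture named DMSO1, to resveratrol. Total RNA went onto 5 Affymetrix mouse expression arrays, 1 per group, and the labels give neither doses nor the clock time of harvest. The comparison was meant to find genes acting in adipogenesis on which the compounds converge. Of these, butein is a chalcone, sulfuretin an aurone and resveratrol a stilbene.

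The circadian clock is a transcription loop found in most cells, fat cells included. ARNTL, better known as BMAL1, pairs with CLOCK and binds E-box sequences in the genes of the PER and CRY proteins, which return to the nucleus and block that pair. A further loop is made by the nuclear receptors REV-ERB alpha (Nr1d1) and REV-ERB beta (Nr1d2), which repress Arntl, and by the ROR receptors, which compete with them for the same sites. Output runs in part through the D-box, an element that DBP activates and NFIL3, also called E4BP4, represses. Noct encodes nocturnin, an enzyme that removes a phosphate from NADPH, whose transcript cycles strongly in many tissues and is also induced acutely by outside signals. Mice without nocturnin resist obesity on a fat-rich diet. Several of these genes, Per1 and Noct among them, respond to serum and hormones in cultured cells as well as to the time of day.

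Values are intensities on a linear scale in arbitrary units, and differences are log2 of a treated array over its control array. With 1 array per group no comparison has a replicate error or a test of its own. A probe set was placed in the background when it named 1 gene and its mean log2 value over the 5 arrays reached the median of all probe sets, an intensity of 8.39. That left 19719 probe sets, among them 18 of the 20 clock probe sets, and the others, 1 of Per3 and 1 of Arntl, are reported but not counted. A difference was counted at 2-fold, a log2 difference of 1. The deposited values were on different scales in 2 sets of arrays, with a median of 6.85 on the DMSO, butein and sulfuretin arrays and of 11.1 and 11.5 on the DMSO1 and resveratrol arrays. Many probe sets also had exactly equal values on 2 arrays of a set, 29.5% of the background for butein and DMSO, 32.5% for sulfuretin and DMSO and 32.3% for resveratrol and DMSO1. An equal value is given as such below. With so many ties, it is not taken as evidence of no change.

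The labelled cell type was checked on fixed marker lists. All 9 measured adipocyte markers reached the floor, and their summed intensity lay between 21465 with butein and 26057 in DMSO1. Of 5 preadipocyte and fibroblast markers 4 reached it, with sums between 4416 with resveratrol and 5357 in DMSO, while Dlk1, the preadipocyte marker, read at most 5.65. Col3a1 was the brightest of these markers, at 4253 in DMSO. Macrophage markers summed to between 49.4 with butein and 84.8 with resveratrol, with Adgre1, Cd68 and Ptprc under the floor. Csf1r and Cd14 reached it, Cd14 at 25.7 in DMSO and 46.1 in DMSO1. Muscle markers summed to between 65.7 and 208, with Myod1 and Myog under the floor. Ckm and Acta1 reached it, Acta1 at 71.1 in DMSO and 179 in DMSO1. The 3 measured osteoblast markers summed to between 25.8 and 30.0, and of these Sp7 reached the floor. The adipocyte sum was thus lowest on the butein array, and so were the macrophage and muscle sums. The preadipocyte and fibroblast sum was 4579 with butein against 5357 in DMSO, and the osteoblast sum was 30.0 on both. The part of these lower sums in the differences below was not tested. In these bulk samples fewer cells of a type and less RNA per cell cannot be told apart.

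The promoters of the 4 genes that differed most with butein are shown because they carry, or lack, the elements through which the clock acts. RefSeq windows of assembly GRCm38.p6, from 250 bases before to 50 after the start, were held for 9 of the 10 genes. Each is written from 5′ to 3′ on the strand of the gene in lower case, and capitals mark a match on either strand to the E-box CACGTG, the D-box TTANGTAA, the core of the REV-ERB and ROR element AGGTCA or the core of the cAMP response element TGACG. The windows are chr3:51224197-51224496 on the plus strand for Noct, chr13:52980990-52981289 on the minus strand for Nfil3, chr4:151044616-151044915 on the minus strand for Per3 and chr7:45704997-45705296 on the plus strand for Dbp.
Noct: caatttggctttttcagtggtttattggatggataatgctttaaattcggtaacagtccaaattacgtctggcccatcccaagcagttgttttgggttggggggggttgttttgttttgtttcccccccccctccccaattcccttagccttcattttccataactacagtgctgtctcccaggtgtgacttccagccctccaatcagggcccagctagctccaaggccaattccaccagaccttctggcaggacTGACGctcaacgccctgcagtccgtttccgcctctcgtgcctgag
Nfil3: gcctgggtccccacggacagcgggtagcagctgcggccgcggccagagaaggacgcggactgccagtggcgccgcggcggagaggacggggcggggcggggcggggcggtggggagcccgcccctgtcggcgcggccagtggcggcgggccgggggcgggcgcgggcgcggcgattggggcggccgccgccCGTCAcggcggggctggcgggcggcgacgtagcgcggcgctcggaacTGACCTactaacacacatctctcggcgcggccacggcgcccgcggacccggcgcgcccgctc
Per3: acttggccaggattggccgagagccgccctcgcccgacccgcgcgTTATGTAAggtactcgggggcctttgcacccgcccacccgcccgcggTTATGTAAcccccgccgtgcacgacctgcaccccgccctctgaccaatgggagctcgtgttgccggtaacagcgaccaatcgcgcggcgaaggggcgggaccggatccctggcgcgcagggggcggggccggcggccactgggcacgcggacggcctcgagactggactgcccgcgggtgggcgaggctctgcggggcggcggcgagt
Dbp: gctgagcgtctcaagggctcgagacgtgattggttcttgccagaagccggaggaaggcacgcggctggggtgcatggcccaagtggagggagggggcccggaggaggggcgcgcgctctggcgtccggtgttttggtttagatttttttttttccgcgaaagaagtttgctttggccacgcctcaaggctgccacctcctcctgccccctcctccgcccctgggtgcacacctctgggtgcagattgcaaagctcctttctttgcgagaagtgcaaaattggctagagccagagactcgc

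The Per3 window held 2 D-box matches, 205 and 158 bases before the start. At least 1 such match was present in 2.32% of all 32851 RefSeq windows and 2 or more in 0.198%. The Noct window held 1 cAMP element core, 5 bases after the start, and the Nfil3 window held 1 such core 59 bases before the start and 1 REV-ERB and ROR core 12 bases before it. The cAMP element core was also matched in windows of Per1 and Cry1, and the REV-ERB and ROR core in windows of Per1, Nr1d2 and Arntl. These cores are common, present in 20.8% and 16.3% of all windows. The E-box, present in 7.15% of all windows, was matched in the windows of Cry1, 60 bases before the start, and of Per1, 166 bases before 1 of its 2 starts. The Dbp window held none of the 4 motifs. A match describes the letters only, and its absence says only that these letters are not in this stretch.

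**Figure D1:**
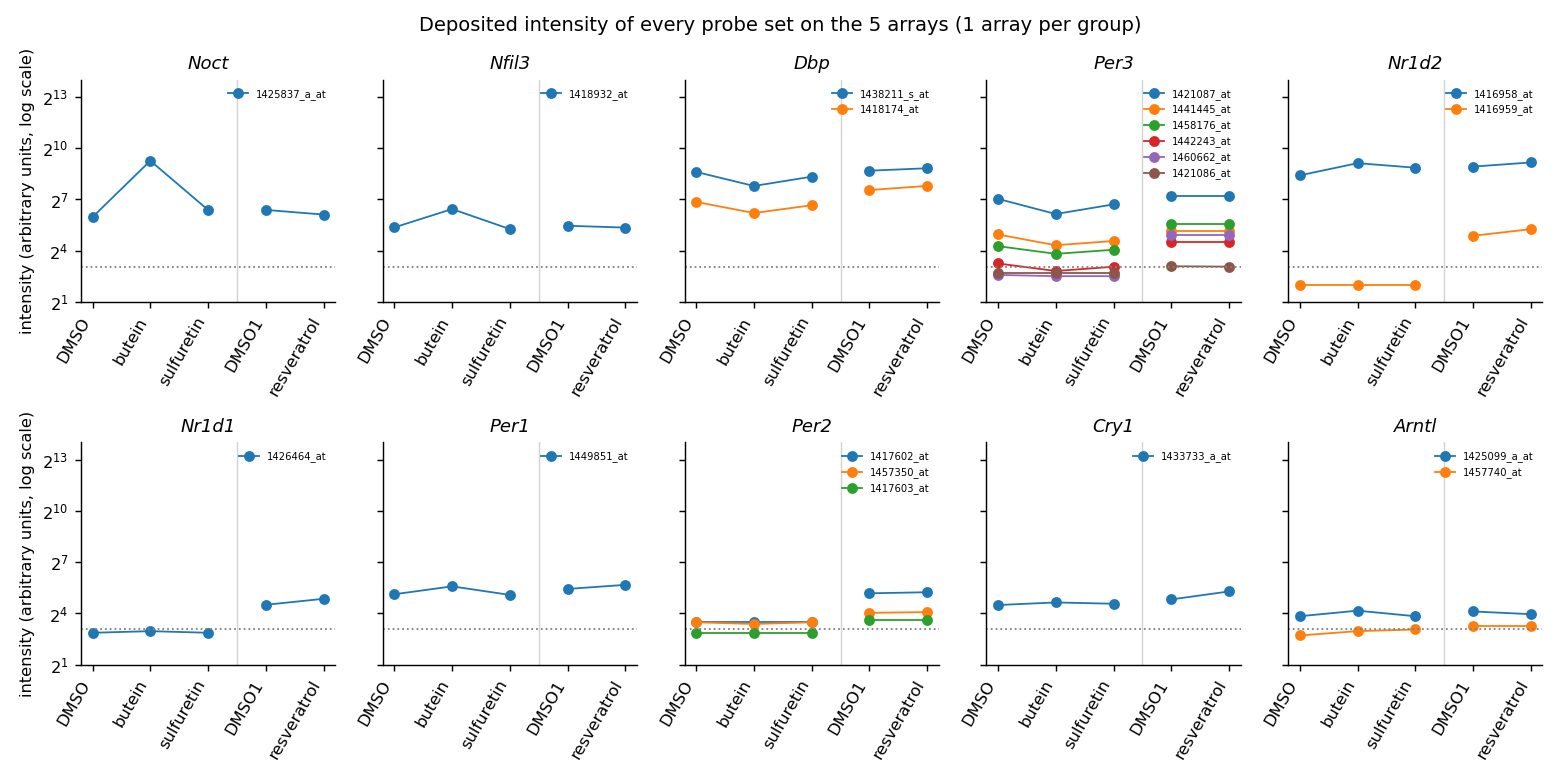
Intensity on a log scale of each of the 20 clock probe sets on the 5 arrays, with a panel per gene, 1 point per array and lines joining arrays of the same set; the dotted line is the floor of 8.39. Noct stood at 615 with butein against 62.7 in DMSO, whereas the points of Per2 on the DMSO, butein and sulfuretin arrays nearly coincide.

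Noct differed most. It read 62.7 in DMSO, 615 with butein and 83.7 with sulfuretin, and 83.8 in DMSO1 and 69.4 with resveratrol. The butein array stood alone, with the other 4 arrays between 62.7 and 83.8. The log2 difference was 3.30 with butein (9.82-fold higher), 0.42 with sulfuretin (1.34-fold higher) and -0.27 with resveratrol (1.21-fold lower). With joint quantile normalization of all 5 arrays the butein difference was 3.16, while the DMSO1 and DMSO arrays differed by -0.22. The difference with butein was thus larger than that between the solvent arrays. In limma on those jointly normalized values with the DMSO arrays as replicates, which has 1 residual degree of freedom, Noct had an unadjusted p of 0.000588 and an adjusted p of 1 over the 19719 probe sets.

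Nfil3, the D-box repressor, was the other clock gene past 2-fold. Its intensity was 41.3 in DMSO, 86.8 with butein and 38.5 with sulfuretin, and 44.1 in DMSO1 and 41.0 with resveratrol. Again the butein array was the high one, and as deposited the other 4 read between 38.5 and 44.1, although the sets are on different scales. After joint quantile normalization resveratrol was at -0.81 against DMSO. The log2 difference was 1.07 with butein (2.10-fold), -0.10 with sulfuretin and -0.11 with resveratrol. With joint quantile normalization the butein difference was 0.96, just under the criterion, and the solvent arrays, which differed by 0.09 as deposited, differed by -0.69. Nfil3 passed 2-fold on the deposited scale and not on that one. In limma its unadjusted p was 0.041 and its adjusted p was 1.

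Noct and Nfil3 were 2 of the 18 counted clock probe sets at least 2-fold higher with butein, where 2.11% of the background was, and 0 were at least 2-fold lower, where 0.411% was. With sulfuretin 0 of 18 passed in either direction, against 0.218% higher and 0.0558% lower in the background. With resveratrol 0 of 18 passed too, against 0.0558% higher and 0.0558% lower. The median size of the log2 difference was 0.44 over the 18 clock probe sets with butein and 0.097 over the background. With sulfuretin the medians were 0.088 and 0.066, and with resveratrol 0.12 and 0.043. The signed medians were 0 with butein, -0.019 with sulfuretin and 0.023 with resveratrol, and 0 over the background in each. Per3 supplies 5 of these 18 probe sets. Taken by the brightest probe set of each of the 10 genes, 7 were higher, 2 lower and 1 equal with butein, with a median of 0.24 against 0 over all genes. With sulfuretin 3 were higher, 4 lower and 3 equal (median 0), and with resveratrol 6 were higher, 3 lower and 1 equal (median 0.10).

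**Figure D2:**
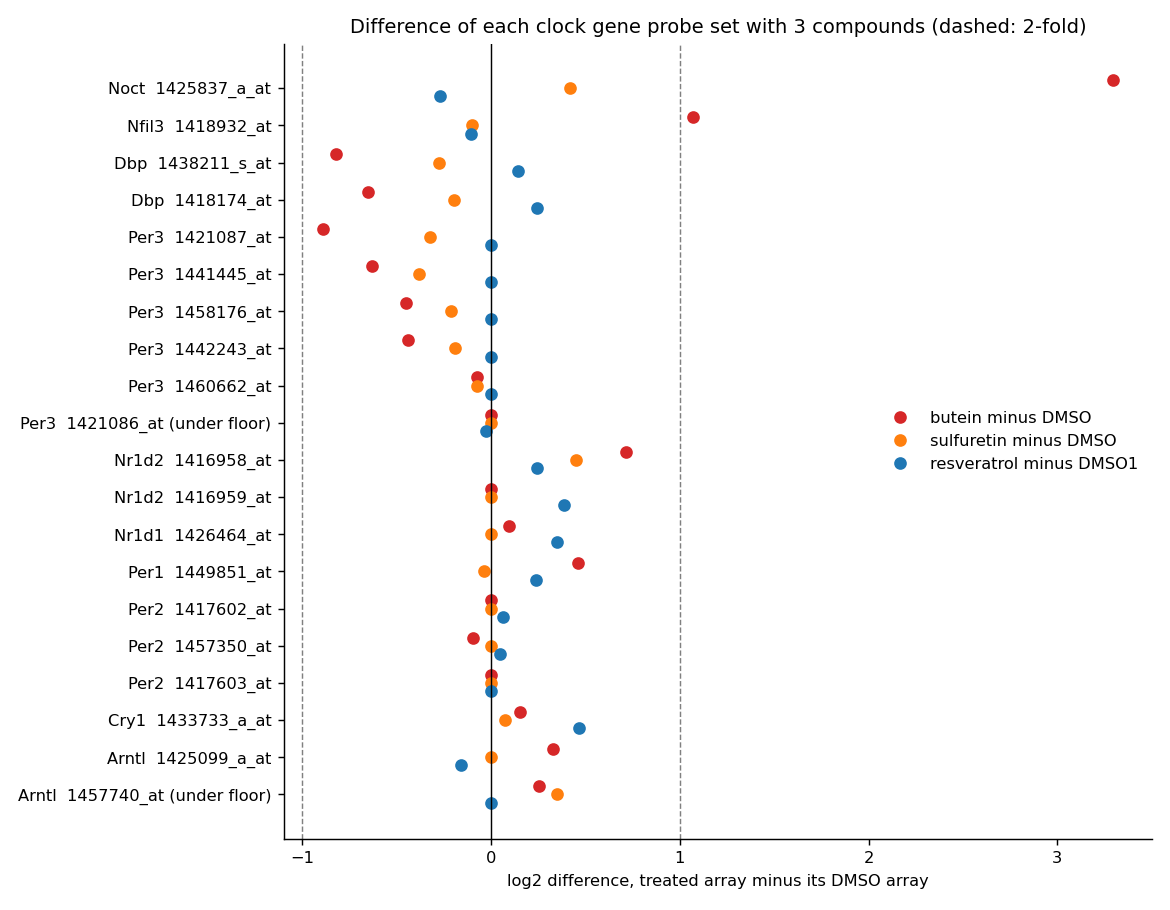
Log2 difference of each of the 20 probe sets for butein and sulfuretin against DMSO and resveratrol against DMSO1, 1 point per comparison, with dashed lines at 2-fold. The butein points of Noct (3.30) and Nfil3 (1.07) lie past the dashed line to the right, and those of Dbp and Per3 lie left of 0 or, for 1 dim Per3 probe set, at 0.

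The D-box activator Dbp was lower with butein on each of its 2 probe sets. The brighter one, 1438211_s_at, read 391 in DMSO, 221 with butein and 322 with sulfuretin, and 411 in DMSO1 and 454 with resveratrol. Butein gave the lowest value and sulfuretin an intermediate one. These are log2 differences of -0.82 with butein (1.77-fold lower), -0.28 with sulfuretin and 0.14 with resveratrol. On 1418174_at the values were 116, 73.8 and 101 in the same order and 187 and 222 in DMSO1 and with resveratrol. The log2 differences there were -0.65 with butein (1.57-fold lower), -0.19 with sulfuretin and 0.24 with resveratrol. Both probe sets thus put the arrays in the same order within each set. Of the background, 0.913% and 2.09% of probe sets had a still lower difference with butein than these, and after joint quantile normalization the solvent arrays differed by -0.31 and 0.21 on them against butein differences of -0.80 and -0.66.

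Per3, a period gene, read lower with butein on 5 of its 6 probe sets, 2 of them partly under the floor, and equal on the other. On the brightest, 1421087_at, it read 131 in DMSO, 71.0 with butein and 105 with sulfuretin, and 147 both in DMSO1 and with resveratrol. That is 1.85-fold lower with butein (log2 difference -0.89), which only 0.669% of the background exceeded downward, and 1.25-fold lower with sulfuretin (-0.32). The 1441445_at probe set read 31.0, 20.0 and 23.8 on the DMSO, butein and sulfuretin arrays and 35.8 on each of the DMSO1 and resveratrol arrays. The order of DMSO, sulfuretin and butein from high to low was the same as on the brightest one, with log2 differences of -0.63 for butein and -0.38 for sulfuretin.

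The dimmer Per3 probe sets gave smaller differences. On 1458176_at the values were 19.3, 14.1 and 16.7, and 47.1 in DMSO1 and with resveratrol. On 1442243_at they were 9.57, 7.05 and 8.37, and 23.1 in DMSO1 and with resveratrol. The first was lower with butein (log2 difference -0.45) and, by less, with sulfuretin (-0.21). The second was under the floor on the butein and sulfuretin arrays, so the size of its difference is not interpreted. The 1460662_at probe set, at 6.02, 5.72 and 5.72 against 29.8 and 29.8, and the uncounted 1421086_at, at 6.42 on each of the 3 arrays against 8.56 and 8.42, lay under the floor on the DMSO, butein and sulfuretin arrays and carry little weight there. With resveratrol 5 of the 6 probe sets were equal to DMSO1 and 1 differed by -0.02. The 6 probe sets measure transcripts of 1 gene in the same RNA and are not replicates. After joint normalization the solvent arrays differed by -0.32 on 1421087_at, against -0.88 with butein. On the other 4 counted probe sets the solvent difference was larger in size than that with butein on 2 and somewhat smaller on 2. It was -0.65 on 1441445_at (butein -0.64), 0.45 on 1458176_at (butein -0.48), 0.37 on 1442243_at (butein -0.50) and 1.56 on 1460662_at (butein -0.10).

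Of the REV-ERB genes, Nr1d2 was measured well above the floor on 1 probe set. On 1416958_at it read 339.7 in DMSO, 557 with butein and 463 with sulfuretin, and 485 in DMSO1 and 574 with resveratrol. Each treated array was above its own control, by log2 differences of 0.71 (1.64-fold), 0.45 (1.36-fold) and 0.24 (1.18-fold). None reached 2-fold, and 96.1%, 97.2% and 97.1% of the background had a lower difference. Against the other DMSO array, on the different scale, the sulfuretin difference became -0.07. Its second probe set, 1416959_at, was at 3.99 on the DMSO, butein and sulfuretin arrays, under the floor, and at 29.4 in DMSO1 and 38.4 with resveratrol. The 2 probe sets of Nr1d2 therefore disagree on the solvent arrays, which differed by 0.14 on the bright and 2.45 on the dim one after joint normalization. Against the other DMSO array as deposited the dim one was at -2.88 with butein and with sulfuretin, and against the mean of both DMSO arrays after joint normalization at -1.24 and -1.25.

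Nr1d1, on its only probe set, read 7.32 in DMSO, 7.82 with butein and 7.32 with sulfuretin, all under the floor, and 22.8 in DMSO1 and 29.0 with resveratrol. The butein and sulfuretin arrays therefore say little about this gene. Its log2 difference with butein was 0.10 against DMSO, but -1.54 against the other DMSO array and -0.31 against the mean of both after joint normalization. The difference kept its sign in 3 of 7 normalization and control settings, among them centring, which leaves it unchanged. Resveratrol gave a log2 difference of 0.35 (1.27-fold higher), and 98.8% of the background had a lower one.

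The positive arm, Arntl, stayed near its controls. On 1425099_a_at it read 14.3 in DMSO, 17.9 with butein and 14.3 with sulfuretin, and 17.4 in DMSO1 and 15.6 with resveratrol. The log2 differences were 0.33, 0 and -0.16, and the solvent arrays differed by -0.61 after joint normalization, more than any of these. The uncounted 1457740_at read 6.57, 7.83 and 8.37, and 9.51 on each of the DMSO1 and resveratrol arrays.

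Among the repressors of that arm, Per1 was higher as deposited with butein and resveratrol than in their own controls, by less than 2-fold. It read 34.9 in DMSO, 48.0 with butein and 34.0 with sulfuretin, and 43.3 in DMSO1 and 51.1 with resveratrol. The log2 differences were 0.46 (1.38-fold higher), -0.04 and 0.24 (1.18-fold higher). The solvent arrays differed by -0.48 after joint normalization, about as much as butein and DMSO. On that scale the resveratrol difference was -0.22 against the other DMSO array and 0.02 against the mean of both.

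Cry1, the cryptochrome gene, had its largest difference with resveratrol. Its values were 22.5 in DMSO, 25.0 with butein and 23.7 with sulfuretin, and 28.3 in DMSO1 and 39.1 with resveratrol. Resveratrol gave the highest of the 5 deposited values and a log2 difference of 0.47 (1.38-fold higher), above that of 99.4% of the background. Butein and sulfuretin gave 0.15 and 0.07. The solvent arrays differed by -0.57 on Cry1 after joint normalization, and against the other DMSO array on that scale the resveratrol difference was -0.06. Butein and sulfuretin were at 0.10 and 0.04 against that array, so resveratrol was not the highest on the joint scale.

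Per2 gave almost no difference from its controls, but it read near or under the floor on the DMSO, butein and sulfuretin arrays. Its probe set 1417602_at read 11.2 on the DMSO, butein and sulfuretin arrays alike, and 36.2 in DMSO1 and 37.9 with resveratrol. On 1457350_at the values were 11.2, 10.5 and 11.2, and 16.4 and 16.9. On 1417603_at they were 7.32 on the 3 arrays of that set and 12.4 on the other 2. The largest log2 difference with any compound against its own control was -0.10. Against the other DMSO array, 1417602_at with butein was at -1.70 as deposited and at -0.82 after joint normalization. The butein and sulfuretin arrays therefore say little about Per2.

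**Figure D3:**
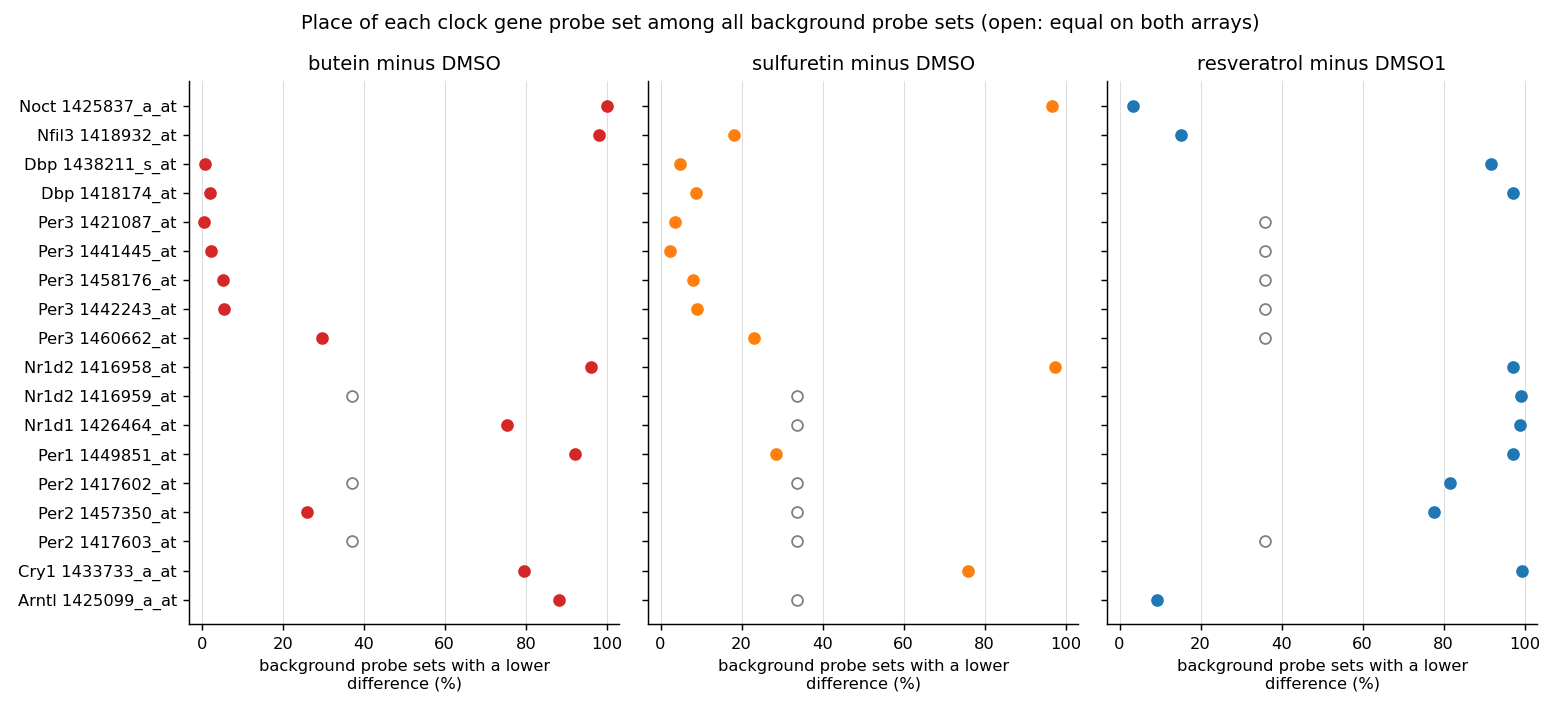
For each of the 18 counted probe sets, the percentage of the 19719 background probe sets with a lower log2 difference in the same comparison; open circles mark probe sets with equal values on the 2 arrays. With butein Noct and Nfil3 sit at 99.9% and 98.1% and the brightest Per3 probe set at 0.669%, while with resveratrol Cry1 sits at 99.4% and the 5 Per3 probe sets are open circles.

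Sulfuretin and butein share the DMSO array, so their values are given side by side. Set against butein directly, sulfuretin left Noct 7.35-fold lower (log2 difference -2.88) and Nfil3 2.25-fold lower (-1.17). These were 2 of 18 at least 2-fold lower, against 1.03% of the background, and 0 of 18 were higher, against 0.101%. The brightest probe sets of Dbp and Per3 were 1.46-fold and 1.48-fold higher with sulfuretin than with butein. The doses are not given, so these are differences between cultures at 6 h and not between matched doses.

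The 2 solvent arrays, each from a culture given DMSO, also differed from one another. As deposited, all 20 clock probe sets read higher in DMSO1 than in DMSO, with a median log2 difference of 0.53 over the 18 counted, and the background median was 0.61. After joint quantile normalization the background median was -0.020, and 10.3% of background probe sets still differed by at least 2-fold in either direction between the solvent arrays. On that scale Nr1d1 was 0.81 higher in DMSO1, Per2 on 1417602_at 0.82 higher, and the differences of Nfil3, Arntl and Cry1 were -0.69, -0.61 and -0.57. The culture, the array and the normalization set cannot be told apart in this difference.

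Other clock components, from a list of 21 genes, were mostly close to their controls. Of 15 counted, 2 were at least 2-fold higher with butein, where 2.54% of background genes passed in either direction by their brightest probe set. They were Bhlhe40, whose product DEC1 represses E-box genes, and Rora, the activator that competes with the REV-ERBs. Bhlhe40 read 84.3 in DMSO, 281 with butein and 123 with sulfuretin, and 116 in DMSO1 and 122 with resveratrol. Rora read 58.3, 118 and 80.2, and 73.8 and 83.3. Each was highest with butein and intermediate with sulfuretin, at 3.33-fold and 1.46-fold over DMSO for Bhlhe40 and 2.02-fold and 1.38-fold for Rora. With joint quantile normalization the log2 difference of Rora with butein was 0.92, under 2-fold, and that of Bhlhe40 was 1.66.

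The remaining genes of that list differed by less than 2-fold. Csnk1e, a kinase gene whose product marks PER proteins for decay, was 1.71-fold higher with butein, and Ciart, a repressor gene of the clock, was 1.63-fold higher. Clock itself had log2 differences of 0.05, 0 and -0.15 with butein, sulfuretin and resveratrol, and Cry2 of 0.07, -0.04 and 0.06. Tef, a D-box activator related to Dbp, had -0.22, 0.06 and 0.02, and its relative Hlf was under the floor, as were Bhlhe41 and Npas2. The list median was 0.14 with butein, 0 with sulfuretin and 0.053 with resveratrol, and the median of all background genes was 0 in each. With sulfuretin 0 of 15 passed, against 0.266% of background genes, and with resveratrol 0 of 15, against 0.142%.

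**Figure D4:**
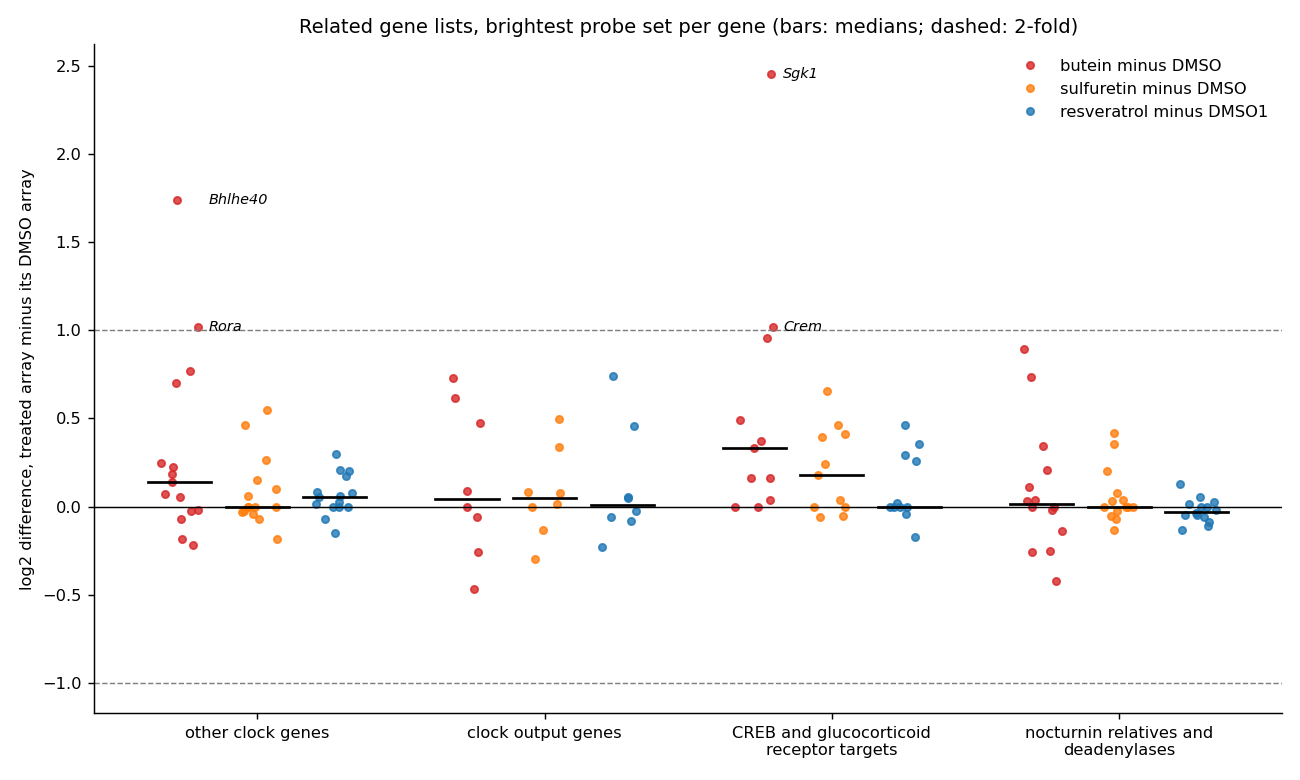
Log2 difference of each counted gene of 4 related lists, by its brightest probe set, with butein, sulfuretin and resveratrol; points are genes, black bars are medians and dashed lines mark 2-fold. Sgk1 (2.45), Bhlhe40 (1.74), Rora and Crem (1.02 each) are past 2-fold, all with butein.

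Signals reach the Per genes through CREB and the glucocorticoid receptor, and 11 genes of these routes were measured and counted. With butein 2 of 11 were at least 2-fold higher, where 2.54% of background genes passed in either direction. They were Sgk1, which encodes a kinase induced by serum and glucocorticoids, and Crem, a feedback gene of CREB. Sgk1 read 100.4 in DMSO, 549 with butein and 158 with sulfuretin, and 157 in DMSO1 and 200.4 with resveratrol. Crem read 20.9, 42.3 and 28.8, and 59.6 and 60.4, higher as deposited in the set with resveratrol, which is on another scale. After joint normalization its log2 difference with butein was 0.93, and DMSO1 was 0.73 above DMSO. Klf9, a glucocorticoid-induced gene, was 1.94-fold higher with butein. Fkbp5 was 1.29-fold higher with butein and 1.38-fold with resveratrol, Tsc22d3, another glucocorticoid target, was equal to DMSO with butein and 1.13-fold lower with resveratrol, and the receptor gene Nr3c1 was equal to its control in all 3 comparisons. The list median was 0.33 with butein, 0.18 with sulfuretin and 0 with resveratrol, and 0 of 11 passed with either of the latter, against 0.266% and 0.142% of background genes.

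Clock output genes and relatives of nocturnin stayed within 2-fold. Of 8 counted output genes 0 passed with any compound, where 2.54%, 0.266% and 0.142% of background genes passed with butein, sulfuretin and resveratrol. Pdk4, which encodes a brake on glucose oxidation, was 1.39-fold, 1.41-fold and 1.67-fold higher with butein, sulfuretin and resveratrol. Nampt, the NAD salvage gene, had log2 differences of 0.09, 0.02 and -0.23. The list of nocturnin relatives and deadenylases includes Cnot6, Cnot6l, Angel1, Angel2 and Pde12. It also holds Nadk, Nadk2, Cnot2 and Cnot3, which do not themselves encode deadenylases. Of its 14 counted genes 0 passed either, against the same background shares, and their medians were 0.015, 0 and -0.028. Pde12, which encodes a mitochondrial deadenylase of the same enzyme family, was 1.86-fold higher with butein, Pan3 1.67-fold higher and Cnot6 1.34-fold lower. None approached the 9.82-fold of Noct.

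Genes most like Noct and Nfil3 were taken as the 3 with the smallest Euclidean distance over the 3 log2 differences. For Noct they were Prg4 (distance 0.34; 3.49 with butein, 0.45 with sulfuretin and 0 with resveratrol), the chaperone gene Dnajb1 (0.51; 3.03, 0.51 and 0.16) and Lonrf3 (0.52; 3.25, 0.36 and 0.24). For Nfil3 they were Adamts1 (0.10; 1.03, -0.18 and -0.06), Rsbn1 (0.16; 1.08, 0.05 and -0.05) and Camk1d (0.17; 0.95, 0 and -0.04). Each is a likeness over 3 differences between lone arrays, of which those of butein and sulfuretin share a control.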

How the data were processed

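The deposited table holds intensities on a linear scale for 45037 probe sets on 5 arrays, made by the authors with RMA, per the submitters' processing notes; for the RMA version and settings, the sources used here give nothing. Log2 was taken with no pseudocount. A lone gene is annotated for 34945 of them, and symbols were updated through a RefSeq table (GRCm38.p6) that held the gene ID of 34741. Butein and sulfuretin were set against DMSO, and resveratrol against DMSO1. Members and lists were chosen with earlier results of these data known. Members are given with every probe set, listed genes by the brightest, at most 6 past 2-fold per list together with Clock, Cry2, Bhlhe40, Bhlhe41, Tef and Hlf; Csnk1e, Ciart, Klf9, Fkbp5, Tsc22d3, Nr3c1, Pdk4, Nampt, Pde12, Pan3, Cnot6 and Npas2 were named after their values were seen. Likeness left out clone and predicted names. Values were called equal within 1e-06 on the log2 scale. Alternatives were fold criteria of 1.5 and 3, other floors, joint quantile normalization, centring, loess (span 0.4), the other or both DMSO arrays, fewer probe sets, gene means, and limma with the DMSO arrays as replicates, adjusted across all background probe sets by Benjamini-Hochberg. The precision is limited by the number of arrays. The counts and the fit were tested on simulated data. Software was limma 3.58.1 in R 4.3.3, and pandas 2.3.3, numpy 2.4.6 and matplotlib 3.10.9 in Python 3.11.15.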

Additional observations from a re-analysis of the deposited data

How the results depend on the processing

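No paired analysis was possible because each group has 1 array, and for the same reason no array could be left out. The 2 clock probe sets higher with butein became 1 at 3-fold, 1 with joint quantile normalization and 1 against the other DMSO array. By limma at an adjusted p of 0.05 they became 0, a setting under which no background probe set passed in any comparison. The 0 lower with butein became 4 at 1.5-fold, 8 with the other DMSO array, 1 against the mean of both DMSO arrays after joint quantile normalization, and 2 against the other DMSO array after it. The 0 lower with sulfuretin became 6, 1 and 2 under those last 3 settings, and the 0 higher with resveratrol became 6, 1 and 3. The 2 lower with sulfuretin than with butein became 1 at 3-fold and 0 with limma. The remaining counts were within 1.5 times. The other DMSO array as deposited is on another scale, with a background median log2 difference of 0.61 for DMSO1 minus DMSO. After joint quantile normalization 10.3% of the background still differed by at least 2-fold between these 2 arrays. The background share passing under the other fold, normalization and control settings is not given here. The changed counts, of clock probe sets or of listed genes, are therefore not read as particular to those genes. Noct with butein lay between 2.88 and 3.38 over 7 normalization and control settings and Nfil3 between 0.96 and 1.64, and both kept their sign. Of these settings, centring left the butein and sulfuretin differences unchanged, because the DMSO, butein and sulfuretin arrays share a median of 6.85. The limma difference was the same as that against the mean of both DMSO arrays after joint quantile normalization. The 7 settings are therefore not 7 separate checks. Both Dbp probe sets stayed lower with butein in all 7, between -1.34 and -0.49, as did Per3 on 1421087_at, between -1.05 and -0.56; Per3 on 1441445_at turned to 0.01 in 1. Listed genes past 2-fold, 0 to 2 per list and treatment, were 1 to 4 with the other DMSO array and 0 to 7 with that array after joint quantile normalization, settings tried for the lists after the data had been seen.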

Other observations

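A further probe set, 1448715_x_at, is annotated to Sgip1, Cog6 and Noct together and was left out by the rule. It read 1343 in DMSO, 1094 with butein and 1336 with sulfuretin, and 2018 in DMSO1 and 2092 with resveratrol, so butein gave its lowest value, unlike on the Noct probe set, and it is not assigned to a gene here.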
